A study of Mus musculus with 20 samples.

Results

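Collagen chain genes were described in the total RNA of C2C12 myotubes, taking every gene whose mouse symbol is Col, a type number, a and a chain number. There were 41 such genes among the 26722 genes of the deposited count table, and 31 of them had enough counts to be tested among 14605 genes. C2C12 cells are mouse myoblasts of an established line, which fuse into myotubes in low serum, and here treatment lasted 16 h after 5 days of differentiation. Each of 5 treatments had 4 libraries, which the submitters describe as biological replicates, and every treatment held 7.7 nM of an antibody. The control received b12, a human IgG4 negative control antibody. The 13-3B5 group received the bivalent antibody 13-3B5, which the labels call an activator of MuSK, the receptor kinase of the neuromuscular synapse. The agrin group received 0.1 nM neural agrin, the natural activator, with b12. The remaining groups received the same agrin with 13-3B5xb12 or with 11-3F6xb12, monovalent antibodies that the labels describe as inhibiting MuSK. All 20 libraries therefore came from 1 cell line.

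Collagens are mostly secreted proteins built from 3 chains wound into a triple helix, in which glycine recurs at regular positions. Fibrillar collagens (types I, III and V among others) polymerise into fibrils, and type IV collagen forms the sheet-like network of the basement membrane that surrounds muscle fibres. Type VI collagen forms beaded filaments that connect the muscle basement membrane with the surrounding matrix. FACIT collagens such as types XII, XIV and XVI sit on fibril surfaces, and multiplexins such as type XVIII are basement membrane collagens that carry glycosaminoglycan chains.

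The coding sequences show the repeat that defines the family and where the fibrillar class parts from the others. A run was counted as at least 3 consecutive codon triplets that begin with a glycine codon (GGN), read in the coding sequence of the GENCODE M21 annotation of the GRCm38 build. The 11 fibrillar chains had longest runs of 216 to 344 triplets. In the 6 type IV chains the longest run was 39 to 66 triplets, and the repeat was cut into 23 to 27 runs. Such breaks were not particular to type IV. FACIT, transmembrane and network chains had up to 23, 22 and 21 runs, with longest runs of at most 113, 55 and 75 triplets. The stretches below, from the chains that the later results turn on, each cover 30 codons, spliced over 2 or 3 exons, written 5′ to 3′ on the gene's own strand, with codons for glycine in capitals.
Col3a1, codons 164 to 193, chr1:45323762-45325413, plus strand: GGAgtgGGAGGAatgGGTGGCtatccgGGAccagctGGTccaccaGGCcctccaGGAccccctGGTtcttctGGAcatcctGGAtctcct
Col1a1, codons 168 to 197, chr11:94939451-94939939, plus strand: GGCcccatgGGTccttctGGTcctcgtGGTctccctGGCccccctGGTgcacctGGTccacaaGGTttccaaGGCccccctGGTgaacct
Col6a1, codons 256 to 285, chr10:76719623-76720996, minus strand: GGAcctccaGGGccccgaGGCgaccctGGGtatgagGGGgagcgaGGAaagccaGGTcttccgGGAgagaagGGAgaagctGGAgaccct
Col6a2, codons 271 to 300, chr10:76611948-76613290, minus strand: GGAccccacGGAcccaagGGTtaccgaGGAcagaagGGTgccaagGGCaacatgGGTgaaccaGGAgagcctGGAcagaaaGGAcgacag
Col14a1, codons 1517 to 1546, chr15:55471708-55473306, plus strand: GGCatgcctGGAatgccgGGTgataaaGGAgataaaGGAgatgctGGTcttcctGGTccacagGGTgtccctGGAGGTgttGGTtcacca
Col18a1, codons 953 to 982, chr10:77077195-77077746, minus strand: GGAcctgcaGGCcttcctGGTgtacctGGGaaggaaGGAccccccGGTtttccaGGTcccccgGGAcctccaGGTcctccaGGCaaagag
Col4a1, codons 212 to 241, chr8:11241179-11242799, minus strand: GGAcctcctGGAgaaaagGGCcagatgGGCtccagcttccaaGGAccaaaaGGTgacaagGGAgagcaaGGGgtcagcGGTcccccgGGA
Col4a5, codons 150 to 179, chrX:141576395-141578743, plus strand: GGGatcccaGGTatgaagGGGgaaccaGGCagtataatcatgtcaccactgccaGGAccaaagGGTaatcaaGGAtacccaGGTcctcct
The Col3a1, Col1a1, Col6a1, Col6a2, Col14a1 and Col18a1 stretches start at the beginning of each chain's longest run. The Col4a1 and Col4a5 stretches were placed over a break, where neighbouring glycine codons stand further apart than in the regular repeat.

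Total counts ranged from 18424881 to 23343903 per library, and 16261 to 18259 genes were detected in each. Myotube markers were abundant, with a summed level of 8902 to 11693 CPM (a library's counts rescaled with TMM factors so that libraries can be compared) over 10 genes. Markers of fibroblasts, which also make collagen, summed to 1319 to 1629 CPM over the 9 listed genes in the table, most of it from the proteoglycan gene Dcn (671 to 998 CPM). In bulk RNA, more cells of a type and more RNA per cell cannot be told apart. Macrophage and endothelial markers summed to at most 2.03 CPM in any library. Before the results, 3 libraries stood apart. In control replicate 2 and in agrin plus 13-3B5xb12 replicate 1, deviations rose with transcript length across genes (Spearman correlations of 0.42 and 0.39, against at most 0.22 in any other library). In agrin replicate 3, liver markers summed to 25.6 CPM, against at most 1.04 elsewhere.

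Collagen transcripts were dominated by a pair of fibrillar chains. All 41 genes together took 0.720% ± 0.057 of all counts (SD, n = 20 libraries, range 0.633% to 0.829%). Col3a1, the single chain of type III collagen, took 50.5% (range 47.9% to 52.9%) of the collagen counts, and Col3a1 with Col5a2 took 70.0% ± 1.39 (SD, n = 20). For comparison between genes, CPM was divided by the length of all annotated exons of the gene in kilobases. On that scale Col3a1 (ENSMUSG00000026043, chr1:45311538-45349706) stood first at 370.1 ± 29.1 and Col5a2 (ENSMUSG00000026042, chr1:45374321-45503282), a chain of type V collagen, which regulates fibril diameter, came next at 146.1 ± 9.84 (SD, n = 20). Among the other fibrillar chains, Col1a2 stood at 36.8 ± 3.64, Col5a1 at 27.2 ± 3.43, Col5a3 at 6.95 ± 1.68 and Col1a1, the major chain of type I collagen, at 4.83 ± 1.91. The fibrillar class held 76.3% ± 1.07 of the summed collagen level per kilobase.

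The remaining classes were led by type VI collagen. Beaded filament chains held 11.1% ± 1.23 of the summed level per kilobase, with Col6a1 at 72.6 ± 13.0, Col6a2 at 8.76 ± 2.13 and Col6a3 at 5.42 ± 0.69 CPM per kilobase (SD, n = 20). Basement membrane chains held 4.63% ± 0.49, with Col4a1 at 21.6 ± 1.75, Col4a2 at 9.07 ± 1.47 and Col4a5 at 5.11 ± 0.74. Col4a1 and Col4a2 encode the pair of chains of the ubiquitous type IV network, and Col4a5 a chain of a network found in specialised basement membranes. FACIT chains held 4.13% ± 0.47, nearly all of it from Col12a1 at 28.8 ± 4.92. Network chains held 3.12% ± 0.24, led by Col8a1 at 21.5 ± 2.83, a chain of the short-chain type VIII collagen. Col18a1, the only multiplexin tested, stood at 4.41 ± 1.03 CPM per kilobase. Neighbours in this order often overlapped over libraries, as did Col4a1 and Col8a1. The order also changed when the longest transcript replaced all exons. Col1a2 then stood above Col6a1 (85.4 and 77.6 CPM per kilobase) and Col8a1 above Col5a1 (32.9 and 27.5). The order of Col4a5, Col1a1 and Col18a1, among others, changed too.

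At the other end, 10 chains were too low to be tested. These were Col20a1, Col9a3, Col6a4, Col4a6, Col22a1, Col15a1, Col2a1, Col4a3, Col6a5 and Col4a4. A gene at or under 3 counts, which is 0.125 to 0.161 CPM depending on the library, was treated as not detectable. Col4a3 and Col6a5 were not above 3 counts in any library, and Col4a4, Col15a1 and Col2a1 were above it in 1, 1 and 2 libraries. Of the tested chains, the transmembrane chain Col13a1 stood at 0.46 ± 0.16 CPM per kilobase, Col17a1, a hemidesmosome component, at 0.19 ± 0.08, Col28a1 at 0.17 ± 0.09 and Col26a1 at 0.058 ± 0.040 (SD, n = 20).

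**Figure D1:**
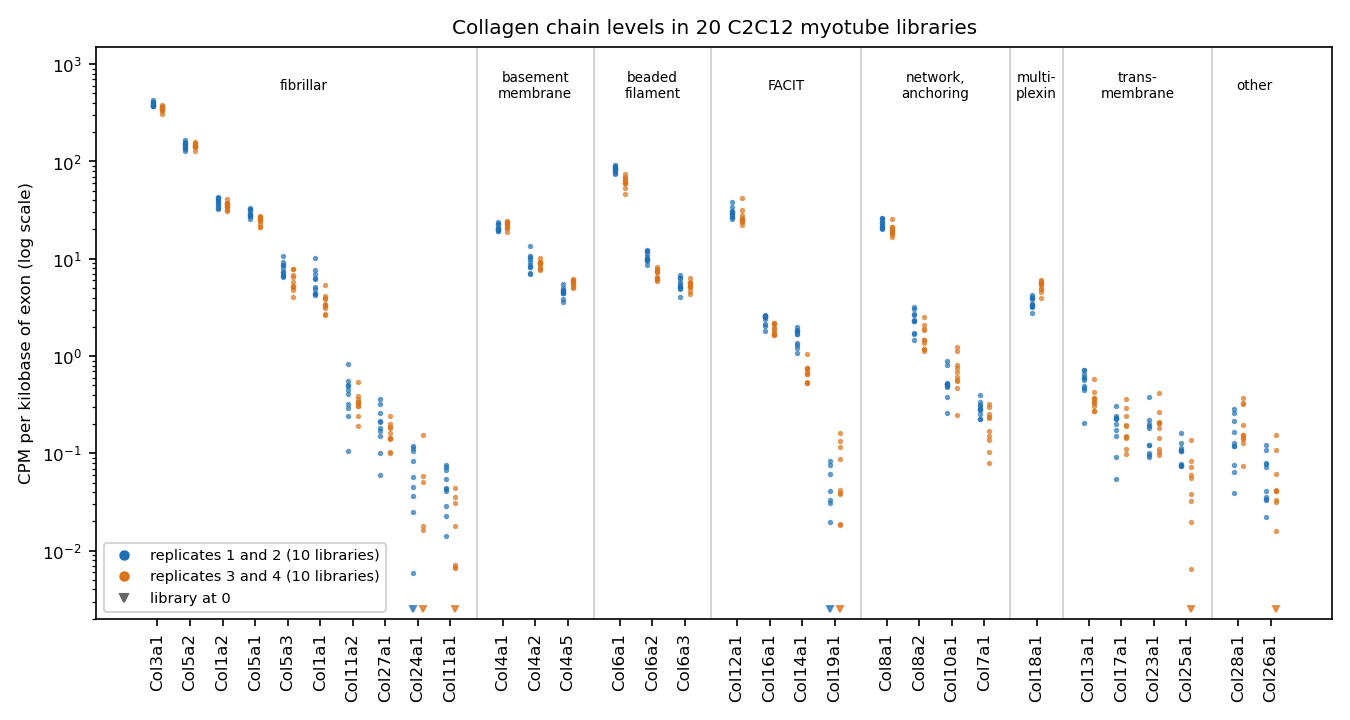
Level of the 31 tested chains in 20 libraries, in CPM per kilobase of exon on a log scale, by class and in order within a class, with replicates 1 and 2 in blue and replicates 3 and 4 in orange. Col3a1 (mean 370.1) and Col5a2 (mean 146.1) stand highest, and triangles mark chains listed at 0 in at least 1 library.

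Libraries numbered 3 and 4 differed from those numbered 1 and 2 in many collagen chains. With treatment as a term, 11 of the 31 tested chains fell and 2 rose (edgeR quasi-likelihood F-test, Benjamini-Hochberg adjusted over all 14605 genes). Over all genes 13.1% were called, 7.13% lower and 5.93% higher. The log2 fold change was negative for 23 of 31 chains, with a median of -0.26 against 0.01 for all genes. The labels do not say what the numbers share, and the split was noticed in an earlier analysis of these libraries, so the p-values describe this split and measure only the spread between these libraries.

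Col14a1, a FACIT chain on fibril surfaces (ENSMUSG00000022371, chr15:55307750-55520803), had the largest difference among chains above 1 CPM. It was 7.53 to 13.8 CPM (median 11.9) in replicates 1 and 2 and 3.68 to 7.29 CPM (median 4.73) in replicates 3 and 4. All 10 libraries of replicates 3 and 4 were below all 10 of the others. Its log2 fold change was -1.20 (SE 0.13, edgeR quasi-likelihood adjusted p = 1.10e-08). The Col14a1 stretch shown above comes from a longest run of 32 triplets, short beside the fibrillar chains.

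Type VI collagen fell in its Col6a1 and Col6a2 chains. Col6a2 (ENSMUSG00000020241, chr10:76595762-76623630) was 71.3 to 102 CPM (median 84.3) in replicates 1 and 2 and 49.2 to 68.7 CPM (median 57.3) in replicates 3 and 4. The ranges did not overlap, and the log2 fold change was -0.60 (SE 0.06, adjusted p = 3.00e-08, edgeR). Col6a1 (ENSMUSG00000001119, chr10:76708792-76726168) was 322.5 to 404.5 CPM (median 364.2) against 202.8 to 327.5 CPM (median 270.0). In 9 of 10 libraries of replicates 3 and 4 it was below all of replicates 1 and 2, and the log2 fold change was -0.44 (SE 0.05, adjusted p = 4.24e-08, edgeR). Col6a3, whose protein joins theirs in the same molecule, had a log2 change of -0.05 (SE 0.08, adjusted p = 0.793, edgeR). Of 31 tested chains, only Col14a1 and Col6a2 fell without overlap of libraries, against 1.14% of all genes that were lower without overlap, and no chain was higher without overlap, against 0.541%.

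Among fibrillar chains 5 of 10 tested fell, and none rose. Col3a1 was 3610 to 4204 CPM (median 3767) in replicates 1 and 2 and 3002 to 3703 CPM (median 3474) in replicates 3 and 4. The log2 fold change was -0.16 (SE 0.04, adjusted p = 0.00300, edgeR). Col1a1 was 27.8 to 67.6 CPM (median 37.1) against 17.5 to 35.6 CPM (median 22.1), and the log2 fold change was -0.75 (SE 0.16, adjusted p = 0.00567, edgeR). The highest Col1a1 value was in control replicate 2, 1 of the libraries that stood apart. Col5a1, the major chain of type V collagen, fell by 0.26 on the log2 scale and Col5a3 by 0.45 (adjusted p = 2.89e-04 and 0.0100, edgeR). Col11a1 fell by 1.93, from a median of 0.55 to 0.09 CPM, which is a handful of counts per library. The lower median is under the level treated as not detectable, and Col11a1 was above 3 counts in 14 of 20 libraries. Col5a2 and Col1a2, ranked 2 and 4 of all chains per kilobase, had log2 fold changes of -0.02 and -0.11 (adjusted p = 0.865 and 0.222, edgeR). Col24a1 was listed at 0 in some libraries of both sets.

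Other classes gave calls in both directions. The FACIT chain Col16a1 fell by 0.33 (adjusted p = 0.00486), and the type VIII chains Col8a1 and Col8a2 fell by 0.21 and 0.52 (adjusted p = 0.0255 and 0.0364, edgeR). Col12a1, the most abundant FACIT chain, had a log2 change of -0.15 (SE 0.11, adjusted p = 0.451, edgeR) and was highest in agrin replicate 3 at 636.1 CPM. Of the 4 transmembrane chains none was called. Near the threshold, Col8a2 and Col11a1 lay just inside (adjusted p = 0.0364 and 0.0374), and Col13a1 and Col25a1 just outside (0.0515 and 0.0557, edgeR).

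A basement membrane chain and a multiplexin rose. Col18a1 (ENSMUSG00000001435, chr10:77052178-77166548) was 19.6 to 29.5 CPM (median 24.2) in replicates 1 and 2 and 27.9 to 42.7 CPM (median 38.4) in replicates 3 and 4. In 9 of 10 libraries of replicates 3 and 4 it was above all of the others, and the log2 fold change was 0.56 (SE 0.07, adjusted p = 5.11e-07, edgeR). Col4a5 (ENSMUSG00000031274, chrX:141475385-141689234) was 24.01 to 37.1 CPM (median 30.8) against 33.99 to 41.5 CPM (median 37.9), and the log2 fold change was 0.32 (SE 0.06, adjusted p = 1.99e-04, edgeR). Col4a1 and Col4a2 had log2 fold changes of 0.08 and -0.07 (adjusted p = 0.289 and 0.673, edgeR). Col6a2, Col6a1 and Col18a1 lie within 570.8 kb of each other on chromosome 10, with opposite directions between the sets.

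**Figure D2:**
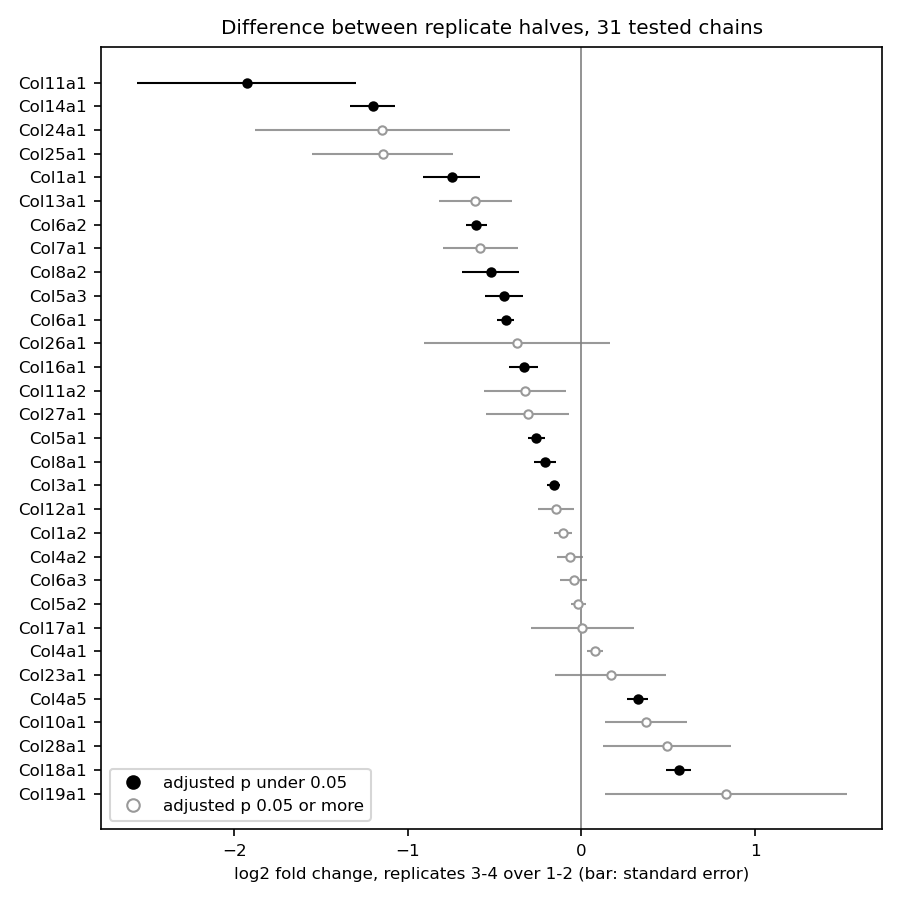
Log2 fold change of replicates 3 and 4 over replicates 1 and 2 for the 31 tested chains, with standard errors, filled where the adjusted p is under 0.05. The 11 filled points left of 0 include Col14a1 at -1.20, and the 2 on the right are Col18a1 at 0.56 and Col4a5 at 0.32.

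The calls were refitted in other ways. In 16 other fits 9 to 16 chains were called, beside 1045 to 2571 of all genes tested. Col14a1, Col6a1, Col6a2, Col5a1, Col18a1 and Col4a5 were called in every one. Col1a1 lost its call in 1 fit, without replicate 4, at a log2 fold change of -0.68 (edgeR adjusted p = 0.152). Col3a1 lost it in 1 fit, without replicate 3, at -0.14 (adjusted p = 0.109, edgeR). These folds were close to those with all libraries, and each such fit held 15 libraries in place of 20. Col16a1 lost its call in 1 fit, Col5a3 in 3, Col8a1 in 4, Col8a2 in 6 and Col11a1 in 9, where Col11a1 ranged from -2.73 to -1.39. No called chain changed direction in any of the 16 fits. Without the 3 libraries that stood apart 11 chains were called, beside 2571 of 14777 genes, against 1908 of 14605 genes with all libraries. Between numbers inside a set, 0 of 31 chains were called for replicate 2 against 1 and 0 for replicate 4 against 3, with 0% of all genes called in each. At an unadjusted p under 0.05 there was 1 chain in each, against 3.14% and 3.75% of all genes (edgeR). These comparisons had 5 libraries a side against 10.

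**Figure D3:**
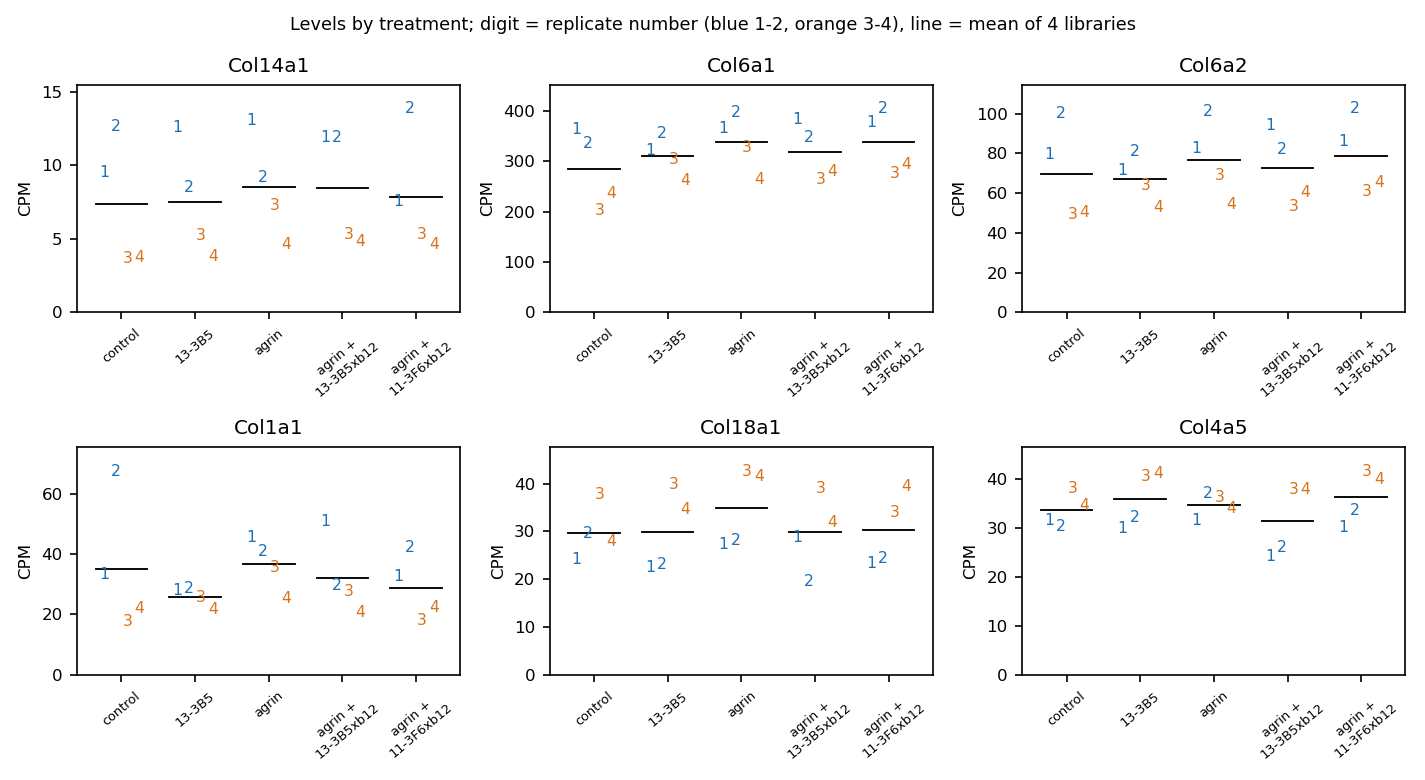
CPM of 6 chains in each library by treatment, with the digit giving the replicate number (blue 1 and 2, orange 3 and 4) and a line at the mean of 4 libraries. Col14a1 and Col6a2 show every orange digit below every blue one, and Col18a1 and Col4a5 show the orange digits mostly higher.

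The difference between the sets is given here by treatment, with 2 libraries a set, as a description. Over the 31 tested chains, the median log2 difference between the sets was -0.40 in the control, where 27 chains were lower in replicates 3 and 4. It was -0.29 for agrin plus 13-3B5xb12, -0.26 for agrin plus 11-3F6xb12, -0.15 for agrin and 0.06 for 13-3B5, where 14 chains were lower. Summed collagen in the control was 7539 to 7621 CPM in replicates 1 and 2 and 6059 to 6366 CPM in replicates 3 and 4. In the 13-3B5 group the same sums were 7011 to 7142 and 6877 to 7187 CPM, which overlap. For agrin plus 13-3B5xb12 they were 6979 to 8312 CPM, the higher in replicate 1, and 6765 to 6817 CPM. That library and control replicate 2 stood apart and lie in replicates 1 and 2. Agrin replicate 3, which also stood apart, lies in replicates 3 and 4. Tests of whether the difference between sets varied with treatment, each against the control, called 0 of 31 chains and 0% of all genes (edgeR, smallest adjusted p of a chain 0.705 for agrin, 0.847 for 13-3B5, 0.999 for agrin plus 13-3B5xb12 and 0.945 for agrin plus 11-3F6xb12). At an unadjusted p under 0.05 there were 9 chains for 13-3B5 (4.95% of all genes), 8 for agrin (6.95%), 3 for agrin plus 13-3B5xb12 (4.27%) and 5 for agrin plus 11-3F6xb12 (4.77%). A difference between treatments was therefore not shown for any chain. These tests share the control libraries, which can move them together.

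Genes that act on collagen or bind it were counted between the sets by list, beside the 7.13% of all genes called lower and 5.93% called higher. Of 21 tested modification and folding genes, the prolyl hydroxylase P4ha2 fell by 0.38, and the collagen chaperone Serpinh1 (log2 fold change 0.18) and P4ha1 (0.11) rose, a share near that of all genes. Of 6 propeptide processing genes 3 fell (the proteinase Tll1 by 1.63, the N-proteinase Adamts2 by 0.23 and Bmp1 by 0.13), and none rose. None of the 5 crosslinking genes was called. Of 9 receptors 3 fell, among them the collagen-binding integrins Itga11 by 1.20 and Itga10 by 0.54, and Itga1 rose by 0.36. In the turnover list of 8, the metalloproteinase inhibitor Timp3 fell by 0.55 and the protease Fap by 1.88, and the inhibitor Timp1 rose by 0.52. Basement membrane partners gave 2 lower (Nid2 by 0.49 and Smoc2 by 0.57) and 1 higher (Lamc1, 0.25) of 12. Fibril partners gave 4 lower of 14, Fbn1 by 0.29, Tnc by 0.71, Postn by 0.18 and Lum by 0.37.

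Markers of cell types and states were counted in the same way, where 13.1% of all genes were called in either direction. Of 10 myotube markers 4 fell, led by the muscle creatine kinase gene Ckm (log2 fold change -0.72), and the median summed level was 10993 CPM in replicates 1 and 2 and 9751 in replicates 3 and 4. Of 7 myoblast markers 2 fell and Cdh15 rose. Among 7 dividing cell markers only Ccnb1 was called lower, a share near that of all genes, but the median log2 fold change of this list was -0.40. Its median sum was 158.0 CPM in replicates 1 and 2 (124.8 to 213.5) and 110.9 CPM in replicates 3 and 4 (101.5 to 214.2), ranges that overlap. Fibroblast markers gave 2 lower, Postn and Lum, and Twist2 higher of 8, with a median sum of 1506 and 1454 CPM. Mitochondrially encoded genes took 30.2% to 39.1% of counts in replicates 1 and 2 and 27.9% to 32.5% in replicates 3 and 4. Their part in the collagen differences was not tested. With the mitochondrial genes left out 13 chains were also called, beside 1911 of 14577 genes.

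No chain was called in any of the 8 treatment comparisons. Over all genes 0% were called as well. At an unadjusted p under 0.05 there were 0 chains for agrin against control (2.85% of all genes), 1 for 13-3B5 against control (2.77%) and 0 for 13-3B5 against agrin (2.39%). There were 0 for 13-3B5xb12 against agrin (3.83%), 1 for 11-3F6xb12 against agrin (3.33%), 2 for 13-3B5xb12 against control (2.39%), 2 for 11-3F6xb12 against control (3.25%) and 1 for 11-3F6xb12 against 13-3B5xb12 (4.22%). With the replicate number as a block 0 chains were called, against 0.0137%, 0.0205% and 0.0342% of all genes for 11-3F6xb12 against agrin, control and 13-3B5xb12, and 0% in the other comparisons. For the 16 chains with a mean above 10 CPM, 127 of 128 log2 fold changes were smaller than 0.5 in either direction, ranging from -0.51 (Col1a1, 13-3B5 against agrin) to 0.25. Their median standard error was 0.13 and the largest 0.39. These values came from the fit without a term for replicate number or set. For agrin against control, either term lowered the median standard error of 31 chains from 0.33 to 0.20. With the block, 2 chains there had an unadjusted p under 0.05, beside 582 of 14605 genes (edgeR). They were Col6a1 (log2 fold change 0.27, SE 0.08) and Col3a1 (0.15, SE 0.06), neither called. Other comparisons had 0 to 4 such chains under the block, beside 440 to 904 of all genes.

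Agrin against control asks what the natural activator of MuSK did. The log2 fold change was positive for 26 of 31 chains, with a median of 0.13 against 0.00 for all genes. Col3a1 was 3543 to 4020 CPM with agrin and 3002 to 3827 CPM in the control, a log2 difference of 0.15 (SE 0.08, adjusted p = 1.00, edgeR). Col5a2 had a log2 fold change of 0.13 (SE 0.07). Within replicates 1 and 2 the log2 fold change was positive for 16 of 31 chains (median 0.00), and within replicates 3 and 4 for 25 (median 0.31). Summed collagen was 7043 to 7994 CPM with agrin and 6059 to 7621 CPM in the control, which overlap. For 13-3B5 against control, 13 of 31 chains were positive, and the lowest p belonged to Col17a1, at 0.33 to 1.05 CPM in the control, where 13-3B5 gave a log2 difference of 1.10 (SE 0.45, adjusted p = 0.999, edgeR), and to Col24a1 (-1.36, SE 1.21). Against agrin, 13-3B5 gave its smallest p for Col28a1 (-1.04, SE 0.57) and Col5a2 (-0.12, SE 0.07).

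The monovalent antibodies were compared with agrin alone, with control and with each other. With 13-3B5xb12 against agrin the smallest p-values were those of Col23a1 (-0.96, SE 0.50) and Col10a1 (0.71, SE 0.38), neither called. Against control they were those of Col10a1 (0.88, SE 0.38) and Col4a1 (0.18, SE 0.08). For 11-3F6xb12 they were those of Col4a2 (-0.31, SE 0.12) and Col5a2 (-0.13, SE 0.07) against agrin, and of Col17a1 (1.15, SE 0.45) and Col4a2 (-0.25, SE 0.12) against control. These comparisons share the agrin or control libraries, and shared libraries can move them together. The values came from the fit without a term for replicate number. With the block, Col4a2 for 11-3F6xb12 against agrin was -0.30 (adjusted p = 0.954, edgeR).

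Col4a2 had the smallest p of any chain in a treatment comparison. With agrin plus 11-3F6xb12 it was 46.4, 47.3, 50.5 and 61.2 CPM, and with agrin plus 13-3B5xb12 it was 89.9, 61.8, 59.8 and 60.5 CPM in replicates 1 to 4. The groups overlapped by 1 library, and replicate 1 of the second group, a library with a length-dependent deviation, stood far above the rest. The log2 fold change was -0.40 (SE 0.12, unadjusted p = 0.00238, adjusted p = 0.992, edgeR), and -0.24 without that library. Within replicates 1 and 2, which include that library, it was -0.70 (adjusted p = 0.0250), and within replicates 3 and 4 it was -0.11 (adjusted p = 1.00). It was also called with no filter on low counts, at -0.41 (adjusted p = 0.0316, edgeR). Col4a2 and Col4a1 overlap by 22 bases on opposite strands, of 6619 bases of Col4a2 exon, and whether counting used the strand is not given in the sources used here. The other gene with the smallest p in that comparison was Col4a5 (0.21, SE 0.14).

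**Figure D4:**
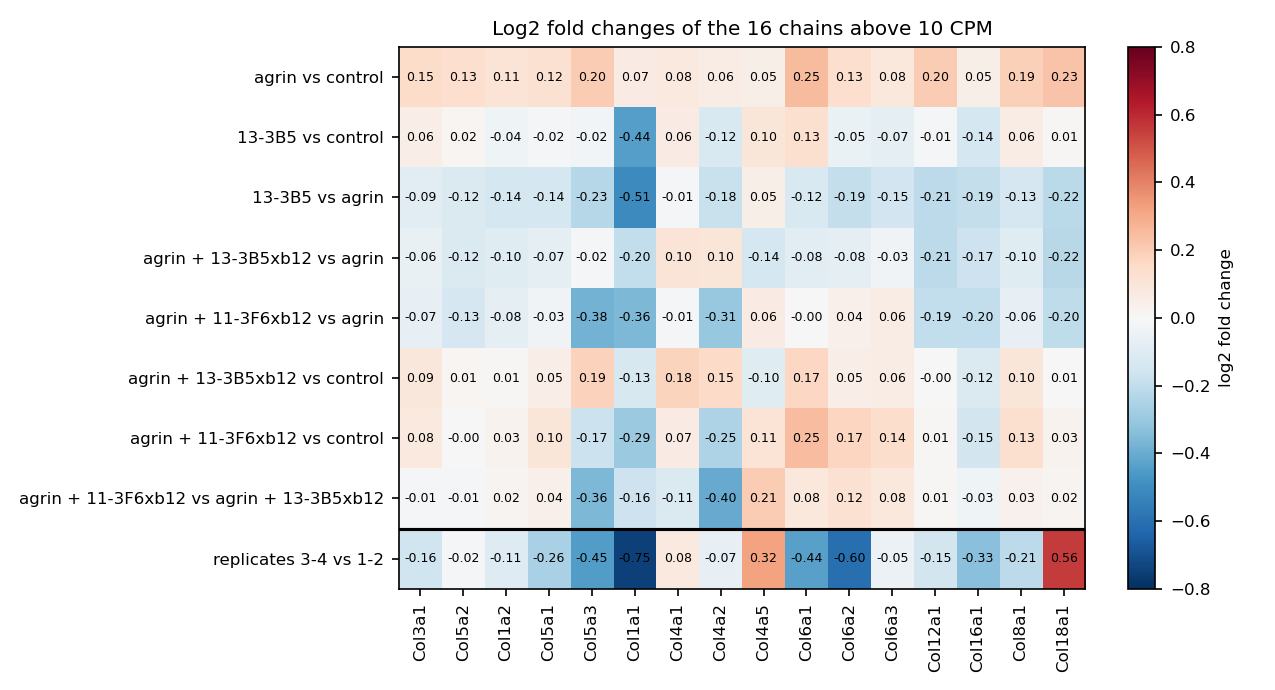
Log2 fold change of the 16 chains above 10 CPM in the 8 treatment comparisons (upper rows) and between replicate sets (bottom row), on 1 colour scale from blue (lower) to red (higher). The most negative treatment value is -0.51 for Col1a1, and the bottom row runs from -0.75 for Col1a1 to 0.56 for Col18a1.

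Chains that assemble into 1 molecule were not at equal levels per kilobase. The ratio of Col1a2 to Col1a1 had a median of 7.93 and ranged from 4.17 to 12.5 over libraries, with medians of 6.89 in replicates 1 and 2 and 9.98 in replicates 3 and 4. With the longest transcript in place of all exons its median was 16.6, and that of Col6a1 to Col6a2 was 5.40, so the size of these ratios depends on the length used. Col4a1 to Col4a2 had a median of 2.39 (1.76 to 2.93), Col6a1 to Col6a2 of 8.56 (6.37 to 9.47) and Col6a1 to Col6a3 of 12.4 (10.00 to 18.02). The last had a median of 15.7 in replicates 1 and 2 and of 11.7 in replicates 3 and 4, a difference that was not tested. These ratios are of RNA and exon length, not of protein.

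**Figure D5:**
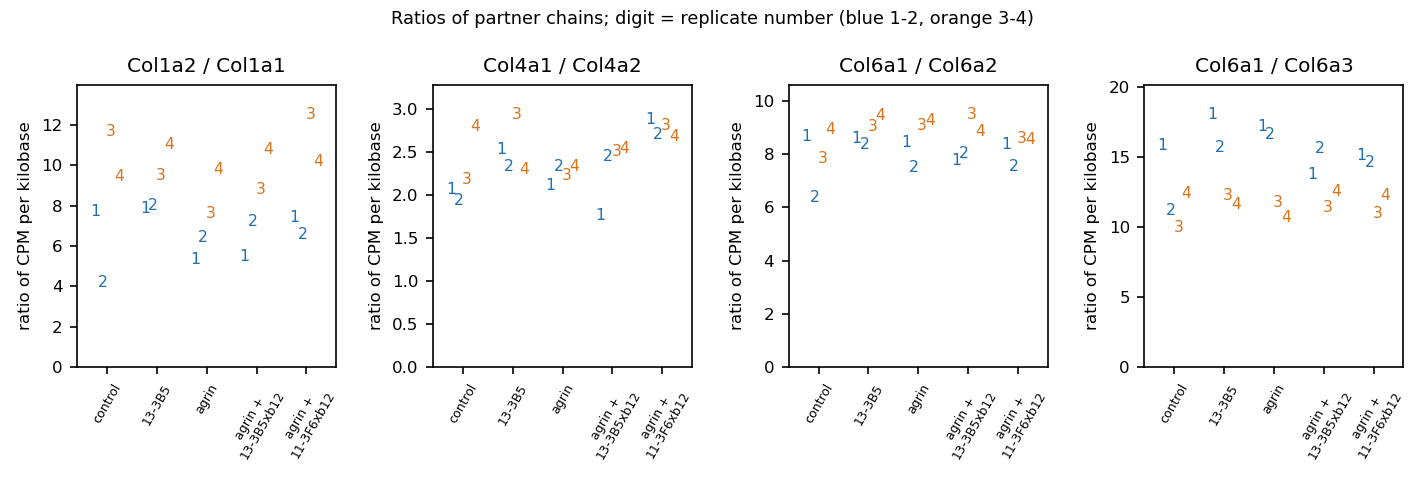
Ratio of CPM per kilobase for 4 chain pairs in each library by treatment, with the digit giving the replicate number (blue 1 and 2, orange 3 and 4). Col1a2 over Col1a1 runs from 4.17 to 12.5, and Col6a1 over Col6a3 has its orange digits at 12.5 or below.

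Modification, processing, crosslinking, receptor, turnover, basement membrane and fibril partner lists had no gene called in a treatment comparison. The receptor Adgrg6 was among the lowest p-values, with a log2 fold change of -0.35 (SE 0.13) for 13-3B5 against control, and the perlecan gene Hspg2 had -0.37 (SE 0.12) for 13-3B5 against agrin. Lum, a fibril-binding proteoglycan gene, had 0.66 (SE 0.21) for 11-3F6xb12 with agrin against control.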

How the data were processed

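The authors deposited a table of whole-number counts per gene for 20 libraries, unnormalized. Per the labels' protocols the RNA was extracted with a miRNAeasy kit and libraries were TruSeq Stranded Total RNA with Ribo-Zero, read as paired ends of 150 bases. Per the submitters' processing notes, Trim Galore 0.6.6, cutadapt 2.10, STAR 2.7.6a, HTSeq 0.12.4, DESeq2 1.32.0 and GRCm38 were used. The strand setting of the counting is not given in the sources used here. Besides Col4a1 with Col4a2, exons of other named chains overlap genes on the opposite strand. Among them are Col10a1 (with Nt5dc1), Col5a1 (with 2 genes) and Col4a2 (also with Gm15419). Exons of Col3a1 overlap Gm47302 on the same strand. The effect of these overlaps on the counts was not tested.

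Counts were scaled with TMM factors in edgeR 4.0.16 (R 4.3.3), filtered with filterByExpr (minimum count 10, minimum total 15) and fitted with a robust quasi-likelihood model over 20 libraries. P-values were adjusted by the Benjamini-Hochberg method over 14605 genes with a threshold of 0.05. The comparison of replicate sets had treatment as a term. Gene lengths came from GENCODE M21. DESeq2 1.42.0 was an alternative. The edgeR model was also run on simulated counts. These held no difference between sets beyond genes changed on purpose, and no length-dependent libraries. That run therefore does not bear on these features of the real libraries. No 2 replicates agreed within sampling noise (chi-square per gene at least 5.17 in 30 pairs). The members and lists were chosen with earlier results of these data known. The rule named the 2 highest chains of each class, chains called between sets, and the 2 chains with the smallest p in each comparison.

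Replicate numbers were taken from the titles. For 13-3B5 against control, 13-3B5 against agrin, and both monovalent antibodies against agrin, every same-number correlation of deviations passed 0.1. The main fits held no term for the number in these comparisons either, so they ignore any pairing. The block was an alternative fit. Across all comparisons libraries with the same number correlated at 0.195 on average, those with another number of the same set at 0.201, and those of the other set at -0.198. Libraries with the same number were thus no more alike than others of the same set, so the correlations do not show pairing by number.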

Additional observations from a re-analysis of the deposited data

Results flagged for a closer look

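Among 37 measures in 185 groups of 4 libraries, 9 groups had a library far from the other 3. For normally spread values chance alone gives about 9.25. The measures include chains, their sums and their ratios, so the flags are not independent and the match does not settle whether a given flag is chance. In agrin plus 13-3B5xb12 replicate 1, the library that deviates with transcript length, Col4a2 was highest at 89.9 CPM against 59.8 to 61.8, summed fibrillar chains were 6660 CPM against 5463 to 5596, all chains summed to 8312 CPM against 6765 to 6979, and the ratio of Col4a1 to Col4a2 per kilobase was lowest at 1.76 against 2.44 to 2.54. Replicate 3 of the same treatment had the highest sum of Col26a1 and Col28a1, at 2.16 CPM against 1.10 to 1.24. In the agrin group, Col17a1 was highest in replicate 2 at 1.45 CPM against 0.87 to 0.91, and Col5a1 in replicate 1 at 269.3 CPM against 230.8 to 235.5. Col5a2 was highest in control replicate 1 at 1474 CPM against 1331 to 1336. Col13a1 was lowest in 13-3B5 replicate 3 at 1.71 CPM against 2.64 to 2.82.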

How the results depend on the processing

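Of 224 treatment counts of called chains, 221 stayed at 0. With no filter on low counts 1 chain was called for 13-3B5 against agrin (Col1a1) and 1 for 11-3F6xb12 against 13-3B5xb12 (Col4a2), and Col4a2 was also the 1 call of the latter within replicates 1 and 2. The DESeq2 Wald test called 1 chain for replicate 2 against 1 (Col4a3) and 2 for replicate 4 against 3 (Col24a1 and Col4a4). Col4a3 and Col4a4 were too low to be tested in the main fit. Col4a3 had 5 counts in total over 20 libraries and at most 3 in any of them. Col4a4 had 4 counts in total, all in 1 library. These 2 calls therefore rest on a few reads and do not show a difference between replicate numbers. Col24a1 was above 3 counts in 11 of 20 libraries, and the cause of its call was not tested. The log2 fold change of Col4a2 for 11-3F6xb12 with agrin against control was 0.033 within replicates 3 and 4. Between the sets, uncalled chains near 0 changed sign. Col17a1 was -0.18 without the 3 libraries that stood apart, -0.016 with a length and GC correction, -0.061 to 0.050 with each replicate number left out, -0.064 without 13-3B5 and -0.14 without agrin plus 13-3B5xb12. Col4a2 was 0.032 without the 3 libraries, -0.14 to 0.010 with each replicate number left out and 0.0023 without agrin plus 13-3B5xb12. Col5a2 was -0.048 to 0.013 with each replicate number left out and 0.010 without agrin plus 11-3F6xb12, and Col26a1 was 0.16 without the control. The fits that leave out a treatment, and those that leave out a library or the 3 libraries under the block, were chosen after seeing the data. Leaving out each library in turn gave 0 to 0 calls in each treatment comparison. Leaving out each replicate number gave 9 to 11 calls between the sets, and over all genes 1908 calls became 1045 without replicate 3 and 1171 without replicate 4, and at most 2571 in any alternative. Of 208 refits of the 13 called chains, 183 kept the call and 25 lost it, none changing direction. With the replicate number as a block 0 chains were called in each treatment comparison, and 2, 3 and 5 genes overall in the comparisons with 11-3F6xb12. In 4 of the 8 comparisons the same-number correlations did not all pass 0.1. Low chains such as Col11a1 and Col24a1 are limited by depth.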
